A study of Homo sapiens with 42 samples.

Results

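The mitochondrial ribosomal proteins (MRPs) described here were all genes whose symbol is MRPL or MRPS followed by a number and, in some, a letter, with pseudogenes left out. There were 76 of them among 20515 entries with a symbol, 48 MRPL and 28 MRPS, and all 76 were among the 14331 genes tested. RNA was measured in 42 libraries of HAP1, a near-haploid human cell line derived from a chronic myeloid leukaemia line, in 10 groups. The genotypes were wild type (wt) and knockout lines, named neil1, neil2 and neil3 after the DNA glycosylase each lacks by its label, and neil123, which lacks all 3 of these enzymes. The NEIL proteins are enzymes that remove oxidised bases from DNA. Each genotype was kept in media alone or given 200 µM BSO for 48 h, beginning after 4 h. BSO (buthionine sulfoximine) blocks glutamate-cysteine ligase and so starves cells of glutathione. Each treatment had 7 wt, 3 neil1, 3 neil2, 4 neil3 and 4 neil123 libraries. Lines were read here from the sample names, as 2 for each knockout: 12 and 13 of neil1, 11 and 12 of neil2, and 1 and 2 of neil3 and of neil123. The 7 wt libraries of a treatment carry 3 names (1.1, 1.3 and p1), of which 1.1 and 1.3 recur in both sets of samples described below, so they may not be 7 independent sources.

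Mitochondria translate the few mRNAs of their own genome, all for subunits of the respiratory chain and ATP synthase, on a ribosome of their own. Its RNA is made in the mitochondrion, but all of its proteins are encoded in the nucleus, made in the cytosol and imported. The small subunit reads the mRNA and the large subunit forms peptide bonds and feeds the new chain to the inner membrane. Some of these proteins have bacterial counterparts, and others are found only in mitochondrial ribosomes.

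Sample names fall into a set without a final letter (called unlettered here: all of neil1 and neil2 and, in each treatment, 3 wt libraries) and a set ending in A or B (called lettered: all of neil3 and neil123 and 4 wt libraries in each treatment). Library totals ran from 27.2 M to 30.9 M reads, of which the 76 members took 0.491% to 0.552% and the 13 mitochondrially encoded mRNAs 1.68% to 4.61%. NEIL2 RNA was lower in neil2 media (300 to 328 normalised read counts) than in wt media (363 to 613), without overlap. NEIL1 RNA in neil1 media (284 to 513) overlapped wt (310 to 975), NEIL3 RNA in neil3 media (410 to 614) overlapped wt (590 to 749), and NEIL1 RNA in neil123 media was 842 to 1072, while NEIL3 RNA in neil123 media (381 to 472) lay below wt. RNA levels thus do not check every label, and genotypes are used as labelled. Of the blood cell markers looked for, PTPRC and GATA1 had a median of 0, and VIM, a mesenchymal intermediate filament, stood at 11763 to 22134. The titles call the knockout and lettered libraries biological replicates, without saying what was grown separately, and the titles of the unlettered wt give no kind of replicate. The p-values cover the scatter among these libraries alone.

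Promoters of 3 of the members called with BSO are shown first, from RefSeq (GRCh38.p14). They run from 250 bases before to 50 bases after the annotated start on the gene's own strand. MRPS27 lies at chr5:72320191-72320490 on the minus strand, MRPL50 at chr9:101398569-101398868 on the minus strand and MRPS11 at chr15:88467458-88467757 on the plus strand. By the GENCODE annotation MRPS27 and MRPS11 start further upstream than by RefSeq. RNA of the first 2 fell with BSO and that of the third rose. Capitals mark a match to AANATGGC, the letters used here for YY1, a zinc-finger factor long tied to promoters of mitochondrial genes.
MRPS27: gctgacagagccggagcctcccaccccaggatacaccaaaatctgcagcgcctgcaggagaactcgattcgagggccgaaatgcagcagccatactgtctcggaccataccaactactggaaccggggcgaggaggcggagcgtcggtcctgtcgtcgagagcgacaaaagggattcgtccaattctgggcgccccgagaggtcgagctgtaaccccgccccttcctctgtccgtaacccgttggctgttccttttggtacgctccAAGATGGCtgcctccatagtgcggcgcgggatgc
MRPL50: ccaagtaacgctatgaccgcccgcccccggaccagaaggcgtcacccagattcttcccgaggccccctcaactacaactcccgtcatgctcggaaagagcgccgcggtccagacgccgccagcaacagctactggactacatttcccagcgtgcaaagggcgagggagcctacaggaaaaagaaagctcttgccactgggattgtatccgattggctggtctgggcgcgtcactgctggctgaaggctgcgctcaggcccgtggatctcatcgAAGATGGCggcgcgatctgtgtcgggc
MRPS11: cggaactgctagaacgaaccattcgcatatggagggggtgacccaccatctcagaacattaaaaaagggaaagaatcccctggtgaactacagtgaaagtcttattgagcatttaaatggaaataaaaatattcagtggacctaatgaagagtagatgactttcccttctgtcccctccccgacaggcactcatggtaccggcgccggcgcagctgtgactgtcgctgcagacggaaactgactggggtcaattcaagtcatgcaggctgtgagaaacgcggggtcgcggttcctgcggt

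The match began 16 bases after the RefSeq start in MRPS27 and 23 bases after it in MRPL50, and the MRPS11 window held none. By the GENCODE annotation the MRPS27 and MRPS11 windows lie wholly inside the gene. Bases before those GENCODE starts are thus not in these windows. The window of MRPS15, which fell in wt, neil3 and neil123, held none either. MRPL37 and MRPL51, which rose in wt, held a match 32 and 21 bases after the start. The letters were thus found in members that fell and in members that rose. Of the 67 members with a promoter in the RefSeq table, 25 (37.3%) held the YY1 letters on either strand, against 6.82% of all 27305 promoters of the same length and 9.85% of the 10954 that belong to tested genes. CCGGAAG, the core bound by ETS factors such as GABPA, stood in 28 members (41.8%), against 10.7% of all promoters and 18.6% of those of tested genes. GCGCATGC, letters of the respiratory factor NRF1, stood in 6 members (8.96%) against 3.27% of all promoters and 5.36% of those of tested genes. The looser GCGCANGC, which includes every match of the strict letters, stood in 22 (32.8%) against 12.5% and 21.2%. The E-box CACGTG stood in 8.96% of members against 7.43% of all promoters and 10.1% of those of tested genes. TGATGNAA, the element read by the stress factor ATF4, stood in 1 member (1.49%), against 3.67% and 1.62%. These matches describe letters in a window and are not binding sites.

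The members sat on 21 chromosomes and were short: their median exon length was 2539 bases (GENCODE v29), against 4951.5 over the genes tested. Of the 76, 29 had a protein-coding gene on the opposite strand starting within 1000 bp, and 28 overlapped another tested gene. Their levels were steady. The median coefficient of variation over the 42 libraries was 9.43%, against 13.97% over all genes tested, and in 70 of 76 members the highest library was less than 2 times the lowest.

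Levels per kb of exon spanned a wide range. Length here is the union of all annotated exons of a gene, so the level per kb and its rank depend on the annotation. In wt media MRPL37 was highest, at 2587 ± 99.3 normalised read counts per kb (SD, n = 7), followed by MRPS34 (2414 ± 293), MRPL18 (2340 ± 92.5) and MRPL3 (2317 ± 100.3). MRPL37 and MRPS34 are proteins of mitochondrial ribosomes without a bacterial counterpart, and MRPL3 and MRPL18 are counterparts of bacterial L3 and L18. MRPL37 (2507 to 2785 per kb) lay above every library of MRPL18 (2185 to 2475) and MRPL3 (2145 to 2419), while MRPS34 (2024 to 2873) overlapped all 3. The lowest were MRPS24 (11.9 ± 3.43 per kb), MRPL38 (48.6 ± 18.9), MRPL46 (70.5 ± 12.01) and MRPS18C (78.4 ± 7.93). MRPL46 and MRPS18C overlapped in range, whereas MRPS24 lay below all others, at 8.97 to 18.2 per kb. MRPS24 is uncertain, since its exons are shared with an annotated readthrough gene, URGCP-MRPS24. The median per kb was 870 for MRPL and 518 for MRPS symbols.

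**Figure D1:**
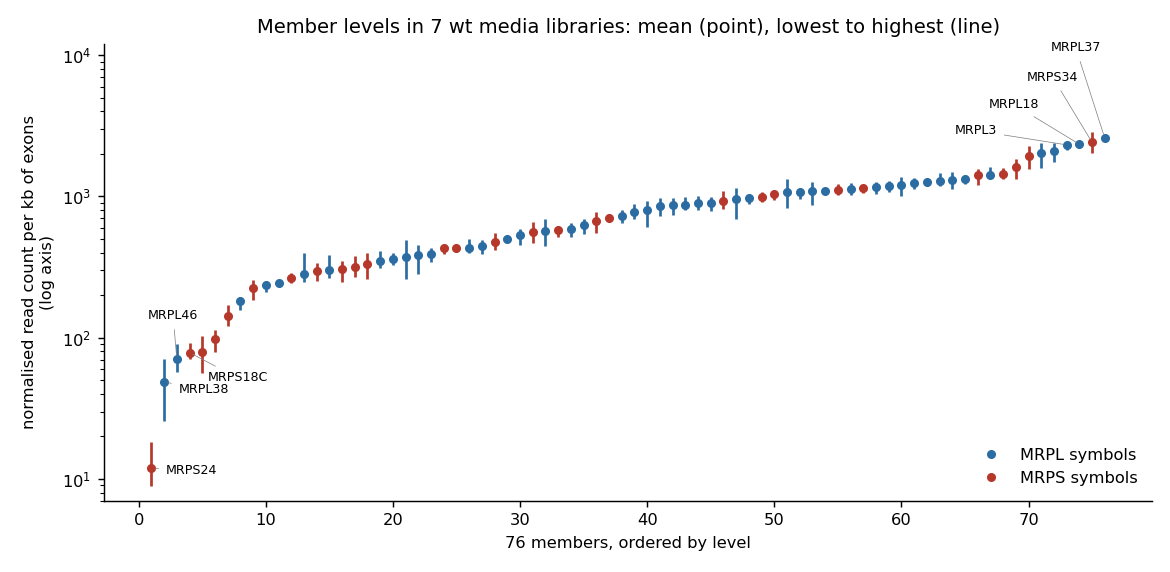
Level of each of the 76 members in 7 wt media libraries, in normalised read counts per kb of exons on a log axis. Points are means and lines run from the lowest to the highest library. Most members lie within a band around the medians of 870 (MRPL) and 518 (MRPS), and MRPS24 stands below the rest at 11.9.

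The question put by the treatment was how RNA changes when glutathione is depleted. At the threshold used few members were called with BSO, and the differences were small. A member without a call is not shown to be unchanged, and more were called with the replicate block described below. The largest difference of any member in any genotype was 0.31 on the log2(value + 1) scale, the scale of all differences given here. In neil3, 10 of 76 members fell (2.92% of all genes tested fell) and MRPS11 rose. In wt, 6 fell and 3 rose (11.8% of members in all). That was below the 13.5% of all genes called in wt, and the 14.5% of members called in neil3 stood against 6.27%. In neil123, 2 fell and none rose (2.63% against 1.6% of genes), and in neil1, 1 fell and 1 rose (2.63% against 1.14%). In neil2 limma called 0 of 76 (0.154% of all genes), with 5 at an unadjusted p under 0.05, 0 called by edgeR and 1 by DESeq2. Calls are limma's at a Benjamini-Hochberg adjusted p under 0.05 over 14331 genes.

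With the replicate name as a block, which pairs each BSO library with the media library of the same name, more members passed. In wt the values do not establish that libraries of the same name are pairs. The block called 8 risen and 13 fallen in wt, 1 and 5 in neil1, 1 and 1 in neil2, 1 and 21 in neil3, and 0 and 3 in neil123. Under the same block 31.6% of all genes tested were called in wt, 7.64% in neil1, 5.76% in neil2, 20.4% in neil3 (10.6% fell) and 8.86% in neil123. Over all 76 the median difference was -0.016 in wt, -0.031 in neil1, 0.011 in neil2, -0.074 in neil3 and -0.040 in neil123. The medians over all genes tested lay between -0.0084 and 0.0044. By symbol, the median in neil3 was -0.12 for MRPS, with 3 of 28 above 0, and -0.059 for MRPL, with 11 of 48 above 0.

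In wt, pairs 1.1 and 1.3 of the unlettered set stood apart from the other 5. Of the 4 lettered wt pairs, 3 had a member median below 0 (1.1A -0.074, 1.3A -0.13, 1.3B -0.081) and 1 just above (1.1B 0.024). Among the 3 unlettered ones, pairs 1.1 and 1.3 stood at 0.12 and 0.13, and p1 at -0.057. In pairs 1.1 and 1.3 the median of 3812 other genes with 1000 to 3500 bases of exons was 0.13 as well. In the other 19 pairs that median lay between -0.035 and 0.036. With the trend over exon length removed, the median of the members in wt was -0.037, with 13 fallen and 2 risen (14% of genes called). Fitted on the lettered wt pairs alone, 6 members fell and none rose, with a median of -0.077 (5.32% of all genes tested were called, and 2.34% fell). On the unlettered pairs alone 1 fell and 4 rose, with a median of 0.073 (9.68% of genes called, 5.28% rose). Without wt 1.1 and 1.3 together, 9 fell and 1 rose, with a median of -0.074 (7.03% of genes called, 3.19% fell). These fits were chosen after the values were seen. All 4 pairs of neil3 had medians between -0.10 and -0.070, and all 4 of neil123 between -0.042 and -0.016. Over all genotypes 11 of 12 lettered and 4 of 9 unlettered pairs lay below 0.

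**Figure D2:**
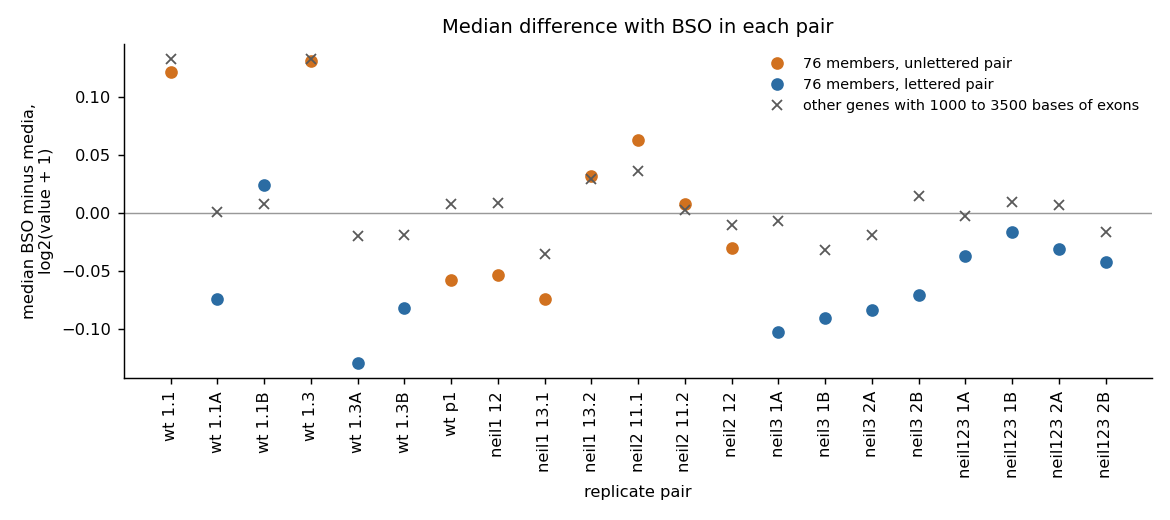
Median difference between BSO and media over the 76 members in each of 21 replicate pairs, on the log2(value + 1) scale, coloured by label set. Crosses give the same median over other genes with 1000 to 3500 bases of exons. In wt pairs 1.1 and 1.3 points and crosses are both near 0.13, and in neil3 the points lie at -0.070 to -0.10 while the crosses stay near 0.

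Among proteins of the small subunit, MRPS27 fell with BSO in 4 genotypes. It is a pentatricopeptide-repeat protein, of a class that binds RNA, and its gene spans chr5:72219409-72320646 on the minus strand (GRCh38, GENCODE v29). In wt media it stood at 4097, 4115 and 4320 normalised read counts in the unlettered libraries and at 3029, 3137, 3328 and 3457 in the lettered ones. With BSO the unlettered wt libraries fell to 3603, 3731 and 3775 and the lettered ones to 2511, 2600, 2632 and 2682. BSO and media did not overlap within either set, and the sets did not overlap in either treatment.

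In neil1, MRPS27 was 4098, 4161 and 4419 in media and 3431, 3664 and 3679 with BSO. Those of neil2 were 3985, 4238 and 4254 in media and 3777, 3801 and 3833 with BSO. Neil3 gave 3037, 3096, 3177 and 3351 in media and 2417, 2551, 2617 and 2642 with BSO. In neil123 the values were 3057, 3139, 3253 and 3318 in media and 2644, 2716, 2757 and 2929 with BSO. Media and BSO libraries were separate in each of these genotypes, and MRPS27 was lower with BSO in 21 of 21 pairs.

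The MRPS27 difference was -0.25 ± 0.033 (SE) in wt (limma adjusted p = 1.17e-06), -0.23 ± 0.051 in neil1 (0.0119), -0.31 ± 0.044 in neil3 (1.52e-05) and -0.21 ± 0.044 in neil123 (0.00537). In neil2 it was -0.13 ± 0.051 and did not pass (0.453). Leaving out 1 pair ended the call in neil1 (without the pair of line 12 or 1 of the pairs of line 13) and in neil123 (without 1B or 2A), with adjusted p of up to 0.209 and 0.0723. In wt the difference was -0.31 over the lettered and -0.17 over the unlettered pairs, both past the threshold. PTCD2, which encodes another pentatricopeptide-repeat protein, starts on the other strand 279 bp from the start of MRPS27, and the 2 genes overlap. PTCD2 fell with BSO in wt (-0.22 ± 0.064, adjusted p = 0.0166) and was -0.13, -0.064, -0.19 and -0.19 in neil1, neil2, neil3 and neil123 without passing. The strand setting of the counting is not given in the sources used here, so reads of the overlap cannot be told apart.

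MRPS15, the counterpart of a bacterial protein that binds small-subunit RNA early in assembly, fell in 3 genotypes. It lies at chr1:36455718-36464437 on the minus strand. In neil3 it was 3307, 3392, 3406 and 3646 in media and 2817, 2845, 2881 and 2982 with BSO, without overlap, a difference of -0.25 ± 0.046 (limma adjusted p = 0.00039). In neil123 it was 3243, 3293, 3313 and 3514 in media and 2880, 2932, 2976 and 3035 with BSO, a difference of -0.18 ± 0.046 (0.038) that lost its call whichever of the 4 pairs was left out. In wt it had a lowest, median and highest value of 3070, 3415 and 3511 in media and of 2947, 3016 and 3177 with BSO, with overlap between the treatments, a difference of -0.13 ± 0.035 (0.00935). The wt sets differed here. The lettered libraries were 3415 to 3511 in media and 2947 to 3045 with BSO, whereas the unlettered were 3070 to 3252 and 2984 to 3177. It did not pass in neil1 (-0.12) or neil2 (-0.012).

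MRPS11 went the other way. It is the counterpart of bacterial S11, a protein of the platform of the small subunit, and lies at chr15:88467453-88480773 on the plus strand. In wt its lowest, median and highest values were 2260, 2462 and 2564 in media and 2624, 2673 and 2876 with BSO, without overlap. In neil2 it was 2362, 2431 and 2515 in media and 2700, 2791 and 2848 with BSO. In neil1 media gave 2266, 2429 and 2602 and BSO 2722, 2793 and 2812, again apart.

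The MRPS11 values in neil3 were 2303, 2441, 2484 and 2504 in media and 2585, 2644, 2670 and 2768 with BSO, and in neil123 2493, 2566, 2566 and 2578 in media and 2687, 2726, 2765 and 2859 with BSO. Treatments were separate in both, and MRPS11 was higher with BSO in 21 of 21 pairs. The rise was 0.15 ± 0.029 in wt (limma adjusted p = 0.000493), 0.19 ± 0.045 in neil1 (0.0217) and 0.13 ± 0.039 in neil3 (0.0298). In neil2 (0.19 ± 0.045, 0.0652) and neil123 (0.11 ± 0.039, 0.18) it did not pass, although with the replicate block the neil2 difference did. Leaving out the pair of line 12 or 1 of those of line 13 in neil1, or any 1 of the 4 pairs of neil3, ended the call, with adjusted p of up to 0.369 and 0.178.

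MRPL46, a large-subunit protein, starts 34 bp from MRPS11 on the opposite strand by the GENCODE annotation. MRPL46 differed with BSO by -0.022 ± 0.056 in wt, 0.13 ± 0.085 in neil1, -0.12 ± 0.085 in neil2, -0.029 ± 0.074 in neil3 and -0.076 ± 0.074 in neil123, and passed in none. Its level is far lower than that of its neighbour, 70.5 against 434 per kb in wt media. For MRPS11 the Pearson r with the mean of the other 75 members, z-scored within genotype and label set over 42 libraries, was -0.18. That was the lowest of all, where the median member had 0.51. Media and BSO libraries were pooled in this r. It thus holds the rise of MRPS11 with BSO given above and is not a separate trait.

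Of the other small-subunit members, MRPS22 fell in neil3 (-0.20 ± 0.049, limma adjusted p = 0.00985), as did MRPS34 (-0.23 ± 0.063, 0.0195). MRPS34 lost its call without pair 1A, 1B or 2A, and MRPS22 without 1A or 2A. COPB2, a coat protein gene that overlaps MRPS22, fell in neil3 as well (-0.20 ± 0.057, limma adjusted p = 0.0284). MRPS12, counterpart of the bacterial decoding-centre protein S12, lay between -0.12 and -0.050 in the 5 genotypes and passed in none. MRPS18B and MRPS18C, 2 of the 3 human copies of bacterial S18, lay between -0.066 and 0.046 and between -0.22 and 0.14, and passed in none, although with the replicate block MRPS18C fell in neil3 (limma adjusted p = 0.0411). MRPS25, named here after its values were seen, was lower in 20 of 21 pairs and passed in wt, neil1 and neil3 only with the replicate block.

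In the large subunit, MRPL50 and MRPL32 fell in wt and neil3. MRPL50, found only in mitochondrial ribosomes, lies at chr9:101387633-101398614 on the minus strand. In neil3 it was 1126, 1201, 1237 and 1243 in media and 956, 994, 1016 and 1088 with BSO, without overlap, a difference of -0.25 ± 0.055 (limma adjusted p = 0.00396). In wt its lowest, median and highest values were 1084, 1176 and 1315 in media and 994, 1091 and 1190 with BSO, overlapping, a difference of -0.15 ± 0.042 (0.0116) that missed without pair 1.3A (0.0657). It was -0.25 over the lettered wt pairs. In the unlettered wt pairs 1.1, 1.3 and p1 it was 0.016, 0.018 and -0.096.

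MRPL32 is made as a precursor that the m-AAA protease of the inner membrane must cut before the ribosome can be assembled. It lies at chr7:42932200-42948958 on the plus strand and was lower with BSO in 21 of 21 pairs. In neil3 it was 1721, 1728, 1917 and 2020 in media and 1469, 1527, 1589 and 1727 with BSO, overlapping at one library, a difference of -0.23 ± 0.056 (limma adjusted p = 0.0105). In wt it was -0.14 ± 0.043 (0.026). The neil3 call was lost without 1A (0.127) and the wt call without 1.1A, 1.1B or 1.3B (up to 0.0848). In neil1, neil2 and neil123 it was -0.17, -0.047 and -0.15 and did not pass. With the replicate block MRPL32 passed in neil1 (limma adjusted p = 0.0185) and neil123 (0.0116). PSMA2, a proteasome subunit gene that overlaps MRPL32, differed by -0.13 ± 0.19 in wt, -0.46 ± 0.28 in neil1, -0.12 ± 0.28 in neil2, -0.67 ± 0.25 in neil3 and 0.068 ± 0.25 in neil123, and passed in none. Without the strand setting, reads of their overlap cannot be told apart either. AFG3L2, a subunit of the m-AAA protease, fell in wt (-0.19 ± 0.038, 0.000772) and in neil3 (-0.22 ± 0.050, 0.0049).

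MRPL3, the counterpart of bacterial L3 near the peptidyl transferase centre, fell in neil3 (-0.21 ± 0.052, limma adjusted p = 0.00935), as did MRPL47 (-0.26 ± 0.066, 0.0106). MRPL12, the stalk protein that contacts translation factors, fell there by 0.27 ± 0.079 (0.0304), and MRPL58, a peptidyl-tRNA hydrolase built into the large subunit that frees stalled chains, by 0.18 ± 0.053 (0.0367). Each of these 4 calls was lost with some single pair left out, that of MRPL58 with any of the 4. MRPL12 was lower in all 3 pairs of neil2 as well (-0.28 ± 0.092), where it did not pass (0.277) except with the replicate block. In wt, MRPL19 fell (-0.18 ± 0.051, 0.0149), as did MRPS30 (-0.12 ± 0.034, 0.0153), which despite its symbol sits in the large subunit. GCFC2, which overlaps MRPL19, also fell in wt (-0.29 ± 0.049, limma adjusted p = 7.95e-05). With the replicate block MRPL19 passed in neil1 (0.0381) and neil3 (0.0424) too, and MRPL3 (0.0191), MRPL47 (0.0115) and MRPS22 (0.013) in wt.

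In wt, MRPL37 (0.14 ± 0.041, limma adjusted p = 0.0205) and MRPL51 (0.15 ± 0.046, 0.0266) rose. Over the unlettered wt pairs alone MRPL37 rose by 0.24, and neither passed over the lettered pairs alone. MRPL51 was nonetheless higher with BSO in 21 of 21 pairs. MRPL44, which has a ribonuclease III fold, MRPL41 and MRPS18A, the other S18 copy and a large-subunit protein, passed in no genotype. They lay between -0.14 and 0.042, between -0.077 and 0.11, and between -0.14 and 0.035.

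**Figure D3:**
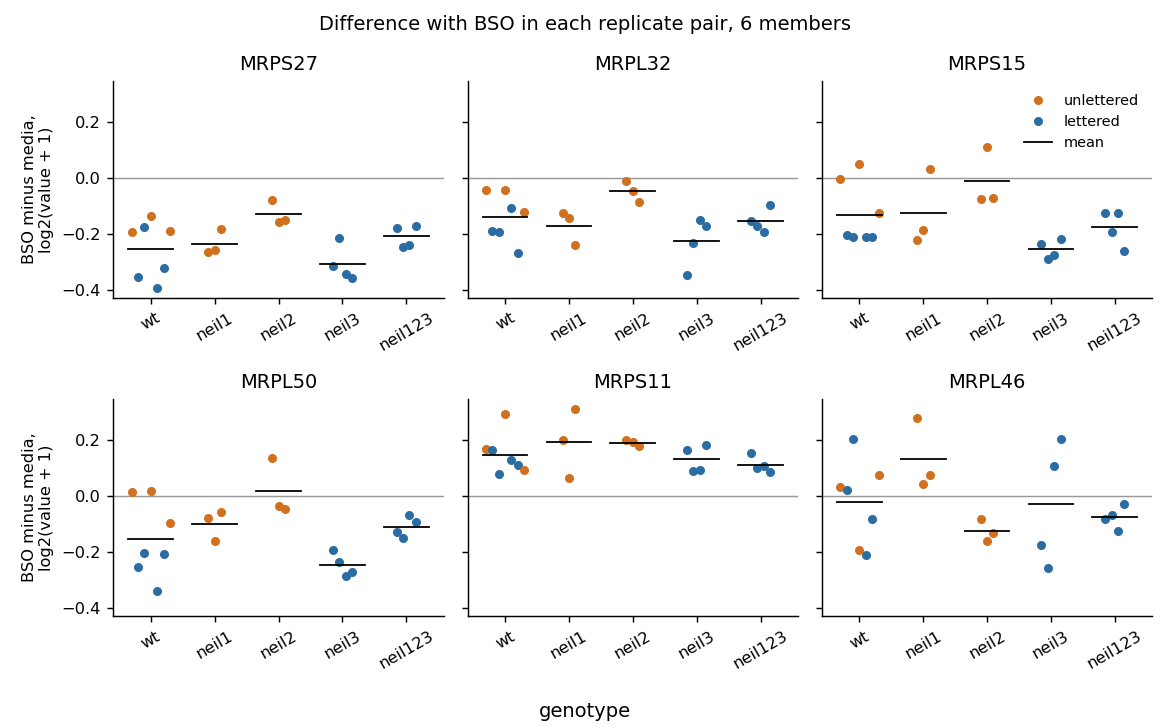
Difference between BSO and media in each replicate pair for 6 members, on the log2(value + 1) scale, by genotype. Points are pairs, coloured by label set, and black lines are means. MRPS27 and MRPL32 lie below 0 and MRPS11 above 0 in all 21 pairs, while MRPL46, which starts 34 bp from MRPS11, lies on both sides.

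No member passed the test of a BSO change in a knockout different from that in wt. Limma called 0 of 76 in each of the 4 comparisons (0% of all genes tested). At an unadjusted p under 0.05 there were 0 for neil1, 6 for neil2, 6 for neil3 and 1 for neil123. EdgeR and DESeq2 likewise called no member. The 4 comparisons share the wt libraries. The median difference of the 76 was -0.042 for neil1, 0.015 for neil2, -0.078 for neil3 and -0.027 for neil123, and 6 of 76 lay above 0 for neil3. The neil3 median rests on wt pairs of both sets, and the lettered wt pairs alone had a median BSO change of -0.077 where neil3 had -0.074.

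The remaining comparison asked how levels differ between knockout and wt cells in media. In neil2, 11 of 76 members rose and none fell (14.5%, against 4.7% of all genes risen and 10.5% called in either direction). In neil123 only MRPS7 rose (1.32% against 7.67%). Limma called 0 of 76 in neil1 (0.349% of all genes), with 11 at an unadjusted p under 0.05, and 0 of 76 in neil3 (0.579%), with 10. EdgeR and DESeq2 also called 0 in both. Each knockout is set against a wt media level adjusted to its label set. The fit draws that level from all wt libraries of both sets and treatments, so the 4 comparisons share their wt libraries.

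The shift of the whole group was small and upward. The median of the 76 was 0.068 in neil1 (67 above 0), 0.073 in neil2 (62), 0.062 in neil3 (67) and 0.063 in neil123 (61). The same medians over the 3812 other genes of 1000 to 3500 exon bases were 0.032, 0.051, 0.035 and 0.033, and over all genes 0.012, 0.0088, 0.0057 and 0.0043. With the trend over exon length removed, the medians of the members were 0.059, 0.038, 0.032 and 0.032, with 8 risen in neil2 (5.47% of genes rose) and none called in the other knockouts. Each media library was also set against the mean of the wt media libraries of its set alone, which differs from the fitted reference. By that measure 13 of 14 knockout libraries had a member median above 0, neil3 2B being below at -0.035. The other neil3 libraries stood at 0.062 (1A), 0.025 (1B) and 0.066 (2A), where the fit gave 0.062. The neil2 libraries lay above their fitted 0.073. The wt libraries themselves ran from -0.075 (1.1B) to 0.087 (p1), a range that holds 10 of the 14. Each wt library is part of the mean it is set against, which narrows that range, while no knockout library is. Only neil1 12 (0.18), neil2 12 (0.15) and the 2 line 11 libraries of neil2 (0.10 and 0.097) lay above the wt range. Whether they exceed a wt range free of this narrowing was not tested.

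**Figure D4:**
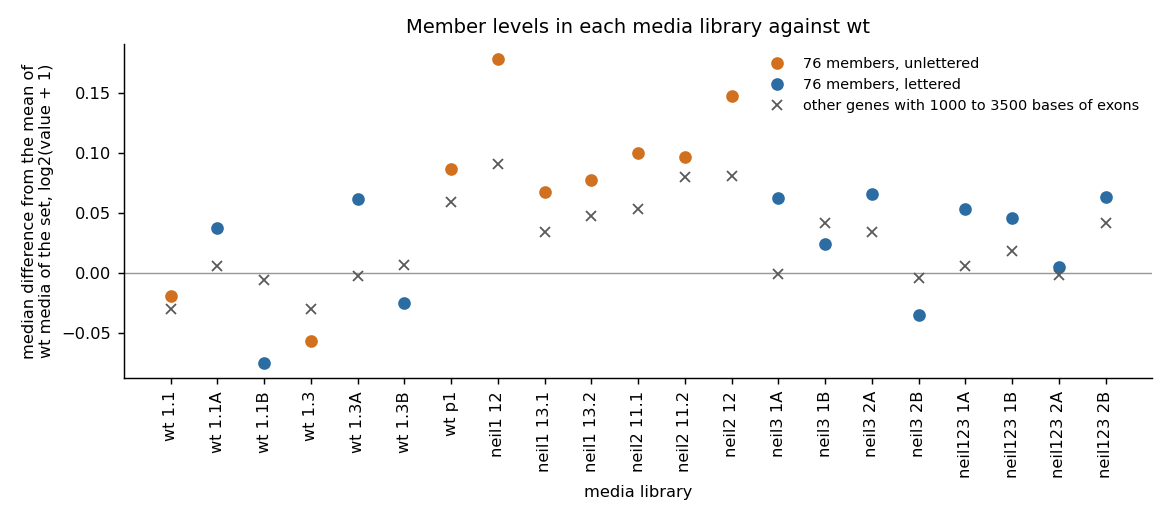
Median difference of the 76 members from the mean of the wt media libraries of the same label set, in each of 21 media libraries, on the log2(value + 1) scale. Crosses are other genes with 1000 to 3500 bases of exons. The wt libraries run from -0.075 to 0.087, and the neil1 and neil2 libraries from 0.068 to 0.18. Each wt library is part of the mean it is set against, which narrows the wt range.

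The number of rises in neil2 changed with the libraries in the fit, those of wt and of neil2 alike. Without the wt libraries 1.1 and 1.3 together, which are 2 of the 3 unlettered wt in media, 1 member (MRPL45) passed in place of 11 (2.45% of all genes tested rose), and the median of the 76 was 0.036 in neil2 and 0.018 in neil1. With only the compared groups in the fit 0 passed, and without neil2 line 12, 3 did (MRPL45, MRPL32 and MRPL38). For these fits the share of all genes called is not given. Their counts thus show only how the number of members called changed. Without neil2 line 11 only the library of line 12 is left in neil2 media, so no count is given. The 11 were MRPL45, MRPL43, MRPS7, MRPL32, MRPL49, MRPS33, MRPL54, MRPL12, MRPL22, MRPL17 and MRPL46, and all but MRPL45 lost the call with some single library left out.

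After MRPL45, the lowest adjusted p were those of MRPL43 (0.25 ± 0.065, limma adjusted p = 0.011), MRPS7 (0.15 ± 0.040, 0.0126), a counterpart of bacterial S7 in the head of the small subunit, and MRPL32 (0.23 ± 0.060, 0.014). MRPL32 was 2043, 2063 and 2090 in neil2 media and 1647, 1734 and 1787 in the unlettered wt, without overlap. MRPS7 was 2501, 2535 and 2632 in neil2 against 2177, 2213 and 2398, also apart. In neil123 MRPS7 was 2521 to 2655 in media against 2269 to 2491 in the lettered wt, apart again, with a difference of 0.12 ± 0.035 (0.0362) that missed without wt 1.1B or neil123 1A, 2A or 2B (up to 0.117). The rest of the 11 in neil2 rose by 0.19 (MRPL22) to 0.26 (MRPL12), with adjusted p of 0.0196 (MRPL49) to 0.0447 (MRPL46).

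MRPL45 was the exception in size. It encodes a protein at the exit of the peptide tunnel that holds the ribosome to the inner membrane, and it lies at chr17:38297023-38323218 on the plus strand. In neil2 media it was 4830 and 4802 in the libraries of line 11 and 2750 in that of line 12, against 2177, 2298 and 2428 in the unlettered wt. With BSO it was 5580 and 5198 in line 11 and 2888 in line 12, against 2498, 2662 and 2732. Line 11 thus stood far above wt in both treatments, by 0.98 to 1.09, and line 12 above but near it, by 0.26 in media and 0.14 with BSO. The neil2 difference was 0.76 ± 0.14 (limma adjusted p = 0.000732), 1.02 without line 12 and 0.22 without line 11, which leaves only the library of line 12.

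Genes next to MRPL45 were then examined, a choice made after its values were seen. Of 13 other tested genes starting within 500 kb, those on either side were also higher in line 11. In its media libraries SOCS7 stood 0.80 and 0.66 above the unlettered wt mean, ARHGAP23 2.09 and 2.13, and NPEPPSP1, a pseudogene, 0.90 and 1.09. In line 12 they stood at -0.027, 0.67 and -0.17. Further on, SRCIN1 was -0.52 and -0.21 in line 11 and EPOP -0.35 and -0.28. The higher genes of line 11 thus lay in a run from NPEPPSP1 through MRPL45 and SOCS7 to ARHGAP23, at chr17:38195703-38512392. TBC1D3, TBC1D3D and TBC1D3K, before NPEPPSP1, are near-identical copies at low counts and are not read.

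**Figure D5:**
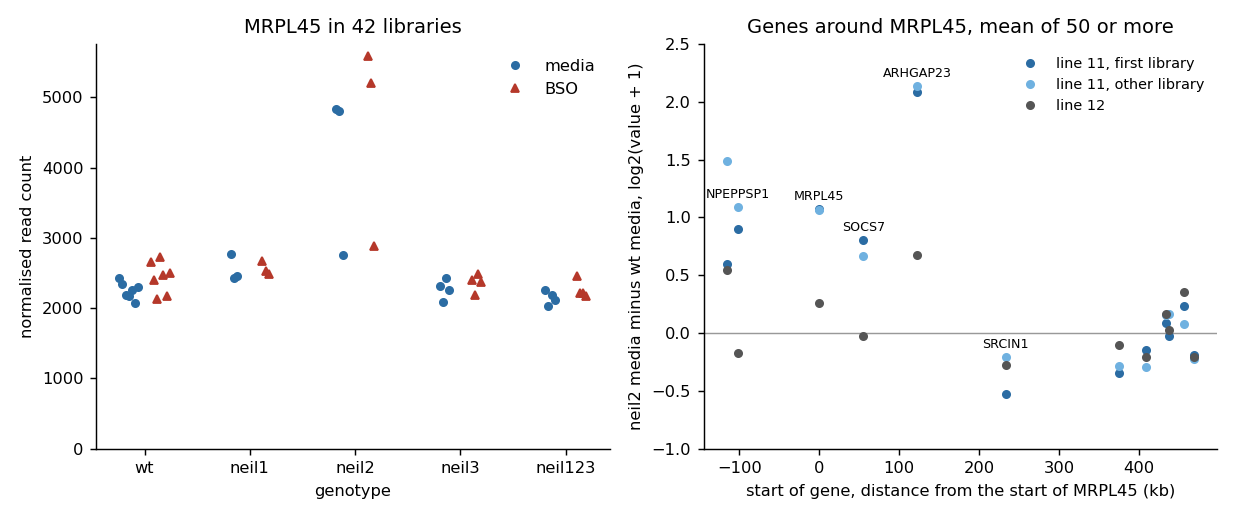
MRPL45 in all 42 libraries (left, normalised read counts, media and BSO by genotype) and, for genes with a mean of 50 or more around it, the log2(value + 1) difference of each neil2 media library from the unlettered wt mean against the distance of the gene's lower coordinate from that of MRPL45 (right). The 2 line 11 libraries of neil2 stand at 4802 and 4830 in media where wt is at 2075 to 2428, and NPEPPSP1 and SOCS7 are raised in the same libraries.

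Members named whatever their test, other than MRPL12, MRPL46 and those above, passed nowhere in media, as follows. MRPL44 was 0.13, 0.11, 0.086 and 0.12 in neil1, neil2, neil3 and neil123. The values for MRPL58 were 0.069, 0.14, 0.10 and 0.12, for MRPL41 0.061, 0.14, 0.062 and 0.17, and for MRPS12 0.056, 0.086, 0.098 and 0.062. MRPS30 lay between -0.050 and 0.0050 and MRPS11 between -0.019 and 0.050.

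Other genes of the mitochondrial translation system were counted from lists. The 5 ribosomal proteins with other names, DAP3 among them, had no call with BSO, and DAP3 lay between 0.023 and 0.066 in the 5 genotypes. PTCD3 rose in neil2 media (0.24 ± 0.053, limma adjusted p = 0.00414). Of 26 assembly and rRNA-modification factors, 1 rose and 3 fell with BSO in wt and 3 fell in neil3. In neil1 MTERF3 fell (-0.30 ± 0.076, limma adjusted p = 0.0333). The RNA helicase DHX30 fell in wt (-0.18 ± 0.033, 0.000264), neil3 (-0.23 ± 0.043, 0.000494) and neil123 (-0.17 ± 0.043, 0.0351), and the rRNA methyltransferase MRM1 fell in wt and neil3 (-0.33 and -0.36). Of 15 translation factors 1, the release factor MTRF1L, fell in wt and in neil3 (-0.16 and -0.26). The elongation factor TUFM (-0.084 to 0.026) and the mRNA-binding LRPPRC (-0.026 to 0.058) passed nowhere with BSO.

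In media, FASTKD2, an RNA-binding protein needed for large-subunit assembly, fell in all 4 knockouts, with differences of -3.14 ± 0.70 in neil1 (limma adjusted p = 0.0325), -3.44 ± 0.70 in neil2 (0.00194), -3.34 ± 0.62 in neil3 (0.00205) and -3.17 ± 0.62 in neil123 (0.000687). Its level was low: 6.59 to 93.7 normalised read counts in the 7 wt media libraries, with a median of 35.5, and 0 to 5.92 in the 14 knockout ones, so these fold changes depend on the pseudocount. The elongation factor GFM1 rose in neil123 (1.13 ± 0.13, 1.75e-07), where it was 5584 to 6032 against 2371 to 3429 in wt, and in neil1 (0.67 ± 0.15, 0.0325), where it was 3496 to 6755. The mitochondrial RNA polymerase POLRMT rose in neil2 (0.69 ± 0.13, 0.000919), at 3077 to 5232, overlapping wt at 2396 to 3334.

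The RNAs that this ribosome translates were counted beside its proteins. Of the 13 mitochondrially encoded mRNAs, 7 rose in wt, 6 in neil1 and 7 in neil3, none fell, and none passed in neil2 or neil123. Their medians were 0.40, 0.62, 0.39, 0.52 and 0.087 in wt, neil1, neil2, neil3 and neil123, and in neil123 6 of the 13 lay below 0. COX1, the core subunit of cytochrome oxidase, rose by 0.68 ± 0.13 in wt (limma adjusted p = 0.000272), 0.97 ± 0.19 in neil1 (0.00534) and 0.80 ± 0.17 in neil3 (0.00182). The median of 80 nuclear-encoded respiratory subunits was 0.042 in wt and -0.037 in neil3, and that of 85 cytosolic ribosomal proteins 0.072 and -0.032, where the members had -0.016 and -0.074. Of 10 genes of the integrated stress response, which is set off by amino acid shortage and mitochondrial faults, all 10 rose in wt and in neil3, 8 in neil1 and in neil123, and none passed in neil2. Their median was 1.04 in wt, 0.82 in neil1, 0.67 in neil2, 1.13 in neil3 and 0.73 in neil123, and in neil2 all 10 lay above 0. The mitochondrial protease LONP1 rose in wt (0.38 ± 0.049, 9.57e-07), neil1 (0.34), neil3 (0.39) and neil123 (0.26).

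The members also varied together among libraries of one genotype and set, with media and BSO libraries pooled. In 40 of 76 the r with the mean of the others was above 0.5. It was highest for MRPL44 (0.85) and, after MRPS11, lowest for MRPS33 (0.011) and MRPL46 (0.070). Outside the group, the 5 genes whose pattern over the 42 libraries was most like the mean of the members were C1QBP, a mitochondrial matrix protein (r = 0.88), ATP5MC3 (0.85), a subunit of ATP synthase, ODC1 (0.85), which starts polyamine synthesis, RAN (0.85), and SLC25A5 (0.83), an ADP/ATP carrier. The libraries share cultures' treatment and library scaling, and these values are a description.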

How the data were processed

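The deposited table holds the authors' normalized signal per gene for 42 libraries: per the submitters' processing notes, reads were processed with Trim Galore, HISAT2 (GRCh38, hg38), SAMtools, featureCounts and DESeq2, with no version or strand setting given in the sources used here. Whole reads were recovered from the step size of each library, for 100% of values (relative tolerance 1e-06), and 1 read had a value of 0.941 to 1.04; on these reads edgeR called 1019 genes risen and 1038 fallen with BSO in wt, where limma called 1038 and 900. Entries without a symbol (9667 of 30182; 0.868% to 1.25% of a library's reads) were left out.

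Differences came from limma 3.58.1 (R 4.3.3) with an intensity trend on log2(value + 1) for 14331 genes with a mean of 10 or more, fitted to all 42 libraries with 10 group terms and 1 for the label set. Benjamini-Hochberg adjusted p under 0.05 over all genes was the threshold in each of 13 comparisons. The members, gene lists and motifs were chosen with earlier results of these data known. Named in each comparison were all members past the threshold (if 12 or fewer), the 4 highest and 4 lowest per kb, and 12 members and 4 other genes whatever their test. Of other lists, up to 3 genes with the lowest adjusted p past the threshold could be named.

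Replicate names pair BSO and media libraries. Deviations from the group means correlated with r of 0.375 to 0.849 over all 21 pairs (residuals of the fit: -0.0793 to 0.849), so the names were taken to pair them. Within groups, chi-square per degree of freedom between libraries was 2.99 or more, so no library was a copy. Tested on simulated data for BSO in wt (14331 genes), limma recovered 53% of 1.25-fold and 100% of 2-fold changes. The simulated libraries were independent, with the same scatter setting for every gene and no label-set, line or pair effect. Recovery in the smaller knockout groups was not tested. Gene positions and exon lengths are from GENCODE v29 (97.9% of genes tested matched, all 76 members). Alternatives were count tests on the recovered reads (edgeR 4.0.16, DESeq2 1.42.0), the replicate block, other pseudocounts, filters, scalings and units of replication, length-trend removal, and single libraries, pairs or lines left out.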

Additional observations from a re-analysis of the deposited data

Results flagged for a closer look

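In groups of 4 to 10 libraries, 1 library stood apart from the others in 9 of 180 groups examined over 30 members, where chance alone gives about 1 in 20 groups. MRPL19 was 2289 normalised read counts in neil123 with BSO 1A, where the other libraries of that group were 2102 to 2131. MRPL45 was 2451 in the same library against 2172 to 2217. MRPS18A was 662 in neil123 with BSO 1B against 753 to 771, and MRPS34 was 2077.5 in neil123 with BSO 2B against 2246 to 2267. In neil123 media MRPS11 was 2493 in 2A against 2566 to 2578, and MRPS33 was 828.98 in 2B against 753 to 764. In neil3 with BSO, MRPL37 was 6716 in 2B against 7045 to 7088, and MRPL49 was 3223 in 2A against 3056 to 3080. MRPL58 was 1241 in wt with BSO 1.3B against 1340 to 1384.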

How the results depend on the processing

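Counts in this section are members past the threshold. For several settings the share of all genes tested is not given, so those counts cannot be read against it. They show only how the number of members called changed with the setting. The replicate block gave 21 with BSO in wt, 6 in neil1, 2 in neil2 and 22 in neil3, and, in neil123, 3 against 2. Without the label-set term, BSO gave 5 in wt, 0 in neil1, 3 in neil3 and 0 in neil123, and media 1 in neil1, 22 in neil2 and 2 in neil123. With only the groups compared, BSO gave 0 in neil1, 3 in neil3 and 1 in neil123, and media 0 in neil2 and 0 in neil123. Line as a random block gave 1 with BSO in neil2, and 6 in neil2 and 0 in neil123 in media. With 1 mean per line, BSO gave 1 in neil1, 3 in neil3 and 0 in neil123, and media 0 in neil123. Equal totals and removal of the length trend each gave 15 with BSO in wt and 0 in neil123 media, and wt split by label set gave 0 there. DESeq2 gave 14 with BSO in wt, 1 in neil2, and 2 in neil123 media.

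In fits chosen after seeing the data, BSO in neil1 gave 0 without line 12 and 0 without line 13, and in neil3 1 without either line. In neil123, leaving out either line gave 0 with BSO and 0 in media. Media in neil2 gave 3 without line 12 and 1 without wt 1.1 and 1.3 together. The unlettered wt pairs alone gave 5 with BSO. Leaving out single libraries or pairs gave 2 to 12 for neil2 media, 0 to 7 for neil123 media, 0 to 1 for BSO in neil1, 4 to 7 in neil3 and 0 to 1 in neil123. The causes were not tested, and such fits hold fewer samples.

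Of 24 BSO calls, 6 were kept with every single pair left out and 4 under every other processing that left out no library. Of 12 media calls, 1 and 0 were kept. None of these calls changed direction in those fits. The median of the members with BSO in wt did change sign, being negative over the lettered and positive over the unlettered pairs alone. The titles do not state lines. As read here from the sample names each knockout has 2 lines, and the wt libraries carry 3 names. The comparisons thus rest on few independent sources.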
